A study of Mus musculus with 50 samples.

Results

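The 8 genes described here belong to the red blood cell lineage and were read in whole embryonic mouse brain: 3 embryonic globins (Hbb-y, Hba-x and Hbb-bh1), 3 adult-type globins (Hbb-bs, Hbb-bt and Hba-a1), the haem enzyme gene Alas2 and the membrane anion exchanger gene Slc4a1. They were taken by symbol from a count table of 11708 genes, and all 8 were found there and passed the filter on low counts. RNA sequencing covered 18 libraries from E13.5 embryos labelled as strain FVB/ANTJ, in 6 groups of 3. In the gtf2i cross the genotype labels were wt, gtf2i and gtf2i/gtf2i, and in the ird1 cross they were wt, ird1 and ird1/ird1. The group whose label names the mutant allele once was read as carrying 1 mutant allele of Gtf2i or of Gtf2ird1, and each cross had its own wt embryos. How the alleles were made and the sex of the embryos are not given in the sources used here. Nothing in the labels says that the 3 libraries of a group came from separate litters, so each p-value measures only the spread between these libraries.

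Globins carry oxygen as tetramers of alpha-like and beta-like chains, each holding a haem group. The first red cells of the mouse embryo arise in the yolk sac and make embryonic globins: Hba-x encodes the zeta chain, Hbb-y the epsilon-y chain and Hbb-bh1 the beta-h1 chain. Red cells made later in the fetal liver use adult-type chains, the alpha chain from Hba-a1 and the beta chains from Hbb-bs and Hbb-bt, and at midgestation both kinds of cell circulate together. Alas2 encodes the red cell form of the first enzyme of haem synthesis. Slc4a1 encodes band 3, the chloride and bicarbonate exchanger of the red cell membrane, which also anchors the membrane skeleton. Circulating red cells are the main known source of these transcripts, although some brain cells make adult-type globins at low levels. The labelled protocol mentions dissection and homogenization of the brains and no removal of blood. In a bulk library, fewer red cells and less of these RNAs per red cell cannot be told apart.

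Total counts ranged from 3239117 to 7371483 per library, and the smallest count of any of the 8 genes in a library was 103, which alone carries a counting error of 9.85%. Levels are given in CPM, the count scaled to a common library size, after TMM scaling, a correction for differences in library composition. Gtf2i fell from 623.7 ± 30.7 CPM (SD, n = 3) in wt to 367.7 ± 6.23 in gtf2i and 82.5 ± 0.797 in gtf2i/gtf2i. Gtf2ird1 was higher, not lower, in ird1/ird1 than in wt of its cross, at 222.8 ± 4.21 against 98.2 ± 13.52 CPM (edgeR adjusted p 3.92e-05). Libraries labelled gtf2i/gtf2i also had more Gtf2ird1, at 267.1 ± 21.0 CPM in gtf2i/gtf2i against 92.4 ± 7.32 in wt and 135.7 ± 8.92 in gtf2i, with log2 fold changes of 1.52 against wt and 0.97 against gtf2i (edgeR adjusted p 5.61e-07 and 7.08e-05). RNA level therefore does not check the ird1 labels as loss of transcript, and "ird1" below means the libraries labelled so. Numbers at the start of the sample titles, whose meaning is not stated, grouped the libraries: 11619, 12301 and 12419 each covered 1 library of each genotype in the gtf2i cross, and 11610 and 11902 covered 2 and 1 of each genotype in the ird1 cross.

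The beta-like genes lie together on chromosome 7 (GRCm38.p6), with Hbb-y at chr7:103851754-103853207, Hbb-bh1 at chr7:103841638-103843162, Hbb-bs at chr7:103826523-103827928 and Hbb-bt at chr7:103812524-103813923. The alpha-like genes lie on chromosome 11, with Hba-x at chr11:32276600-32278116 and Hba-a1 at chr11:32283672-32284486. Slc4a1 lies at chr11:102348820-102365281 and Alas2 on the X chromosome at chrX:150547417-150570622. RefSeq promoter windows were held for 6 of the 8 genes. The 130 bases before each start site are shown to set embryonic beside adult-type promoters, since the 2 kinds of globin are compared throughout, with searched motifs in capitals:
Hbb-y: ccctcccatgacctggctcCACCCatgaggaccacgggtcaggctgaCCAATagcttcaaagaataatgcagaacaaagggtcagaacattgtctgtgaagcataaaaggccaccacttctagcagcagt
Hba-x: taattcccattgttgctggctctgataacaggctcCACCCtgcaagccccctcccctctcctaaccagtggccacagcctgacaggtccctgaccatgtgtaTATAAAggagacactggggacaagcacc
Hbb-bs: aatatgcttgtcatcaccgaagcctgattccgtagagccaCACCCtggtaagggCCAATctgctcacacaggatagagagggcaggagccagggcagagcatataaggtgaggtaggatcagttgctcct
Hbb-bt: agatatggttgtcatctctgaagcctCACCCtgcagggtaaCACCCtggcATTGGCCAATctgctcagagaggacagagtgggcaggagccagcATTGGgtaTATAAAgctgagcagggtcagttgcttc
Hba-a1: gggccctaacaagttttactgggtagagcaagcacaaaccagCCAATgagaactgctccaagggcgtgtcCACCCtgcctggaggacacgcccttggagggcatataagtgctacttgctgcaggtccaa
Alas2: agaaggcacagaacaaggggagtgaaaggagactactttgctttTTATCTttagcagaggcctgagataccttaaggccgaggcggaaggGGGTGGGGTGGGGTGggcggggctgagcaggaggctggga

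Motifs were searched on both strands, so capitals can also mark the reverse complement of a motif. The motifs were CACCC, read by KLF factors, AGATAA, read by GATA factors, CCAAT, read by NF-Y, TATAAA, the TATA box, and GGATTA, a core reported for Gtf2ird1. CACCC stood in all 6 stretches, in Hbb-y at base -111 and in Hba-x at -95 from the start, and in Alas2 on the reverse strand with 3 neighbouring copies. Of 32851 mouse promoter windows, 33.7% held CACCC in the same 130 bases. CCAAT was found in Hbb-y, Hbb-bs, Hbb-bt and Hba-a1, and in 22.4% of all windows. TATAAA was found in Hba-x and Hbb-bt, at base -28 in both, and in 6.83% of windows. AGATAA was found in Alas2 alone of the 6 stretches, and in 4.79% of windows. Only exact matches were searched, so variants such as TGATAA in Hba-x and CATAAA in Hbb-y were not counted. GGATTA, held by 3.08% of windows, was in none of the 6. These matches are a description of letters, and no binding was measured from them here.

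Hbb-y (ENSMUSG00000052187) was the dominant globin in every library. Per kilobase of transcript, its median over the 18 libraries was 4951 CPM, against 658.0 for Hbb-bs (ENSMUSG00000052305), 608.4 for Hba-x (ENSMUSG00000055609), 475.0 for Hba-a1 (ENSMUSG00000069919), 125.4 for Hbb-bt (ENSMUSG00000073940) and 55.5 for Hbb-bh1 (ENSMUSG00000052217). On the same scale Alas2 (ENSMUSG00000025270) had a median of 23.5 CPM and Slc4a1 (ENSMUSG00000006574) of 11.4 CPM. In that order the ranges of Hbb-bs, Hba-x and Hba-a1 overlapped (341.0 to 980.0, 425.2 to 1402 and 304.5 to 866.7 CPM per kilobase), so the order among those 3 does not stand beyond their spread. Hba-a1 and the near-identical Hba-a2, and Hbb-bs and Hbb-bt, can share reads, so how counts were split between such copies is uncertain. Hba-a2 was not analysed here.

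The 8 genes took 0.535%, 0.417% and 0.417% of all counts in the 3 wt libraries of the gtf2i cross, and 0.415%, 0.395% and 0.382% in the gtf2i libraries. They took 0.579%, 0.897% and 0.698% in the gtf2i/gtf2i libraries, each above every other library of that cross. In the ird1 cross the share was 0.323%, 0.433% and 0.507% in wt, 0.400%, 0.607% and 0.524% in ird1, and 0.564%, 0.340% and 0.421% in ird1/ird1, with all 3 groups overlapping. The exact binomial 95% interval of the first wt library ran from 0.529% to 0.541%, so counting error was small beside the spread between libraries.

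**Figure D1:**
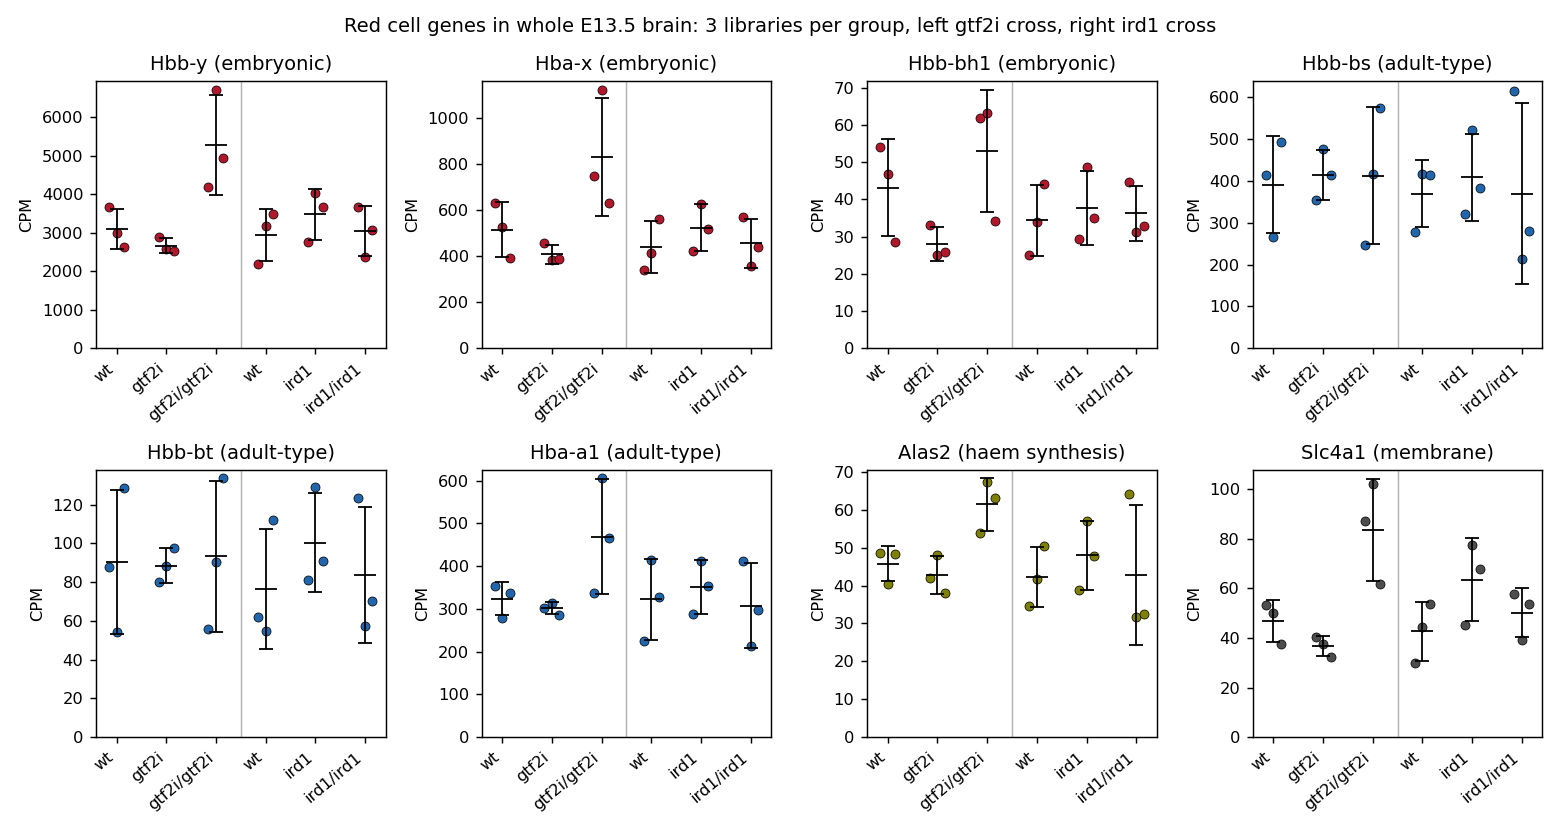
CPM of each of the 8 genes (vertical axis, linear from 0) in the 3 libraries of each group, with the gtf2i cross left and the ird1 cross right of the grey line; points are libraries, the long bar is the mean and whiskers are 1 SD. Hbb-y, Alas2 and Slc4a1 are the panels in which all 3 gtf2i/gtf2i libraries lie above all 3 wt libraries of that cross.

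In gtf2i/gtf2i brains the embryonic beta-like globin Hbb-y and the band 3 gene Slc4a1 rose against wt, while the adult-type beta globins Hbb-bs and Hbb-bt did not pass the test and had estimates near 0. Of the 8 genes, 2 were called at an adjusted p under 0.05, both higher, where 0.94% of all genes were called and 0.41% were called higher. The direction was positive for 8 of 8, with a median log2 fold change of 0.47, beside a median of 0.00160 over all genes, of which 50.4% were above 0. At an unadjusted p under 0.05, 5 of 8 passed, beside 14.4% of all genes.

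Hbb-y stood at 3669, 3002 and 2626 CPM in wt replicates 1 to 3 and at 4199.9, 6715 and 4933 CPM in the gtf2i/gtf2i replicates. The lowest gtf2i/gtf2i library was above the highest wt library. Its log2 fold change was 0.76 (SE 0.160), a 1.70-fold difference, with an edgeR adjusted p of 0.0392.

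Hba-x, the alpha-like partner of the embryonic chains, stood at 632.2, 527.0 and 390.9 CPM in wt and at 748.0, 1123 and 630.6 CPM in gtf2i/gtf2i. The groups overlapped by the narrowest margin, since the lowest gtf2i/gtf2i library fell just under the highest wt library. Its log2 fold change of 0.68 (SE 0.190) had an edgeR adjusted p of 0.0932. Hbb-bh1, the scarcer of the embryonic beta-like genes here, stood at 54.0, 46.8 and 28.6 CPM in wt and at 61.9, 63.3 and 34.2 CPM in gtf2i/gtf2i. One library of each group was low, both under title number 12419, and the log2 fold change was 0.29 (SE 0.235, adjusted p 0.656 by edgeR).

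Hbb-bs, the more abundant adult-type beta gene, stood at 414.4, 266.0 and 493.0 CPM in wt and at 247.1, 417.6 and 573.3 CPM in gtf2i/gtf2i, so the ranges nearly coincided. Its log2 fold change was 0.07 (SE 0.252), and 2 SE either side spanned -0.43 to 0.58, a span that reaches into that of Hbb-y (0.44 to 1.08). Hbb-bt stood at 87.9, 54.2 and 128.4 CPM in wt and at 55.8, 90.3 and 133.5 CPM in gtf2i/gtf2i, with a log2 fold change of 0.04 (SE 0.285). The adult-type alpha gene Hba-a1 had a larger estimate than the adult-type beta genes, a difference that was not tested. It stood at 354.4, 279.6 and 337.9 CPM in wt and at 336.3, 605.8 and 465.3 CPM in gtf2i/gtf2i, with overlapping ranges and a log2 fold change of 0.52 (SE 0.159, adjusted p 0.123 by edgeR).

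Alas2, which starts haem synthesis in red cells, stood at 48.5, 40.4 and 48.3 CPM in wt and at 53.8, 67.4 and 63.0 CPM in gtf2i/gtf2i. The groups did not overlap, yet the log2 fold change of 0.41 (SE 0.124) had an edgeR adjusted p of 0.121. Slc4a1 stood at 53.2, 50.1 and 37.5 CPM in wt and at 87.1, 102.3 and 61.7 CPM in gtf2i/gtf2i, again without overlap. Its log2 fold change was 0.83 (SE 0.171), a 1.77-fold difference and the highest estimate of the 8, with an edgeR adjusted p of 0.0379. In all, 3 of 8 genes had all gtf2i/gtf2i libraries above all wt libraries, beside 7.82% of all genes in that direction.

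The title numbers were taken to pair wt with gtf2i/gtf2i libraries by the rule stated with the processing, which they narrowly met. With the title number as a block 5 of the 8 genes were called, beside 5.33% of all genes (624 genes, against 110 without the block). Their blocked edgeR adjusted p was 0.00366 for Hbb-y, 0.00282 for Slc4a1, 0.00758 for Hba-x, 0.0237 for Hba-a1 and 0.0367 for Alas2. The blocked log2 fold changes of Hbb-bs and Hbb-bt were 0.04 and 0.04, beside 0.07 and 0.04 without the block. The count without the block fell to 0 of 8 by edgeR (5 at an unadjusted p under 0.05 each time) when wt replicate 2, wt replicate 3 or gtf2i/gtf2i replicate 2, the library with the highest Hbb-y, was left out. Over all genes 83, 28 and 36 were then called. It was 4 of 8 in the absence of gtf2i/gtf2i replicate 3, when 1159 of all genes were called. In a fit of only the 6 libraries compared, 0 of 8 were called by edgeR (5 at an unadjusted p under 0.05), beside 0.265% of all genes, and DESeq2 on all 9 libraries called 3 of 8, beside 2.65% of all genes.

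**Figure D2:**
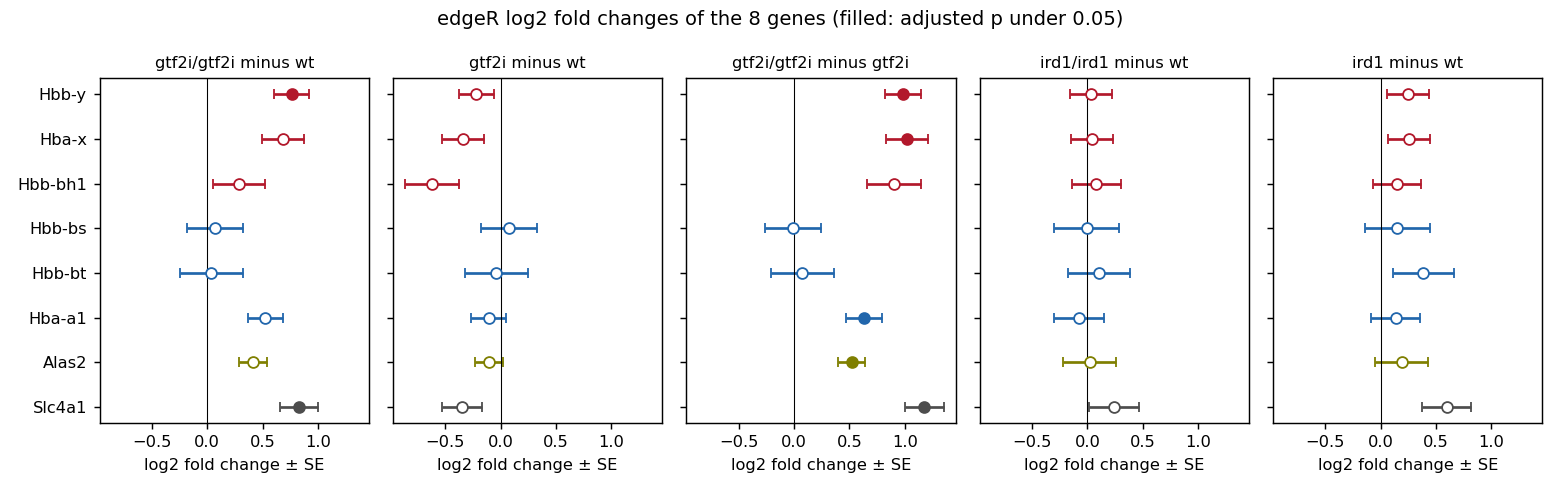
edgeR log2 fold change of each gene (horizontal axis) with 1 SE either side, in 5 genotype comparisons; red marks embryonic globins, blue adult-type globins, olive Alas2 and grey Slc4a1, and filled points have an adjusted p under 0.05. Filled points appear only in the gtf2i/gtf2i panels, where Hbb-bs and Hbb-bt lie near 0.

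With the mutant allele named once, no gene of the 8 was called against wt. The edgeR count was 0 of 8, beside 0.00854% of all genes (1 gene), and DESeq2 also called 0. At an unadjusted p under 0.05 edgeR passed 1 of 8, Hbb-bh1, beside 1.6% of all genes. That count was 0 without wt replicate 1, wt replicate 2, gtf2i replicate 2 or gtf2i replicate 3, and 3 without wt replicate 3, with the title number as a block and in a fit of only the 6 libraries compared. Hbb-bh1 stood at 33.2, 25.1 and 25.8 CPM in the gtf2i libraries, overlapping wt, with a log2 fold change of -0.62 (SE 0.245, p 0.0245 and edgeR adjusted p 1.00). The direction was negative for Hbb-y (-0.22), Hba-x (-0.34), Slc4a1 (-0.35), Alas2 (-0.11), Hba-a1 (-0.11) and Hbb-bt (-0.04), and positive for Hbb-bs (0.08), and every one of the 8 had overlapping libraries, where 7.27% of all genes did not overlap.

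Hbb-y, Hba-x, Slc4a1, Hba-a1 and Alas2 were higher in gtf2i/gtf2i than in gtf2i, while Hbb-bs and Hbb-bt again had estimates near 0. Of the 8 genes 5 were called, all higher in gtf2i/gtf2i, where 3.12% of all genes were called and 1.33% were called higher. This comparison uses the same gtf2i/gtf2i libraries as the one with wt, so its values stand beside those and add no independent support. Libraries did not overlap for 6 of 8 genes, beside 9.17% of all genes in that direction.

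Hbb-y stood at 2886, 2593 and 2516 CPM in the gtf2i libraries, a narrow range under every gtf2i/gtf2i library. Its log2 fold change was 0.98 (SE 0.161, adjusted p 0.00589 by edgeR). Hba-x stood at 457.2, 384.9 and 387.2 CPM and differed by 1.02 (SE 0.191, adjusted p 0.0133 by edgeR). Slc4a1 stood at 40.4, 37.7 and 32.3 CPM and differed by 1.17 (SE 0.175, adjusted p 0.00345 by edgeR), the largest estimate of the 8. Among the remaining genes, Hba-a1 rose by 0.63 (SE 0.160, adjusted p 0.0482 by edgeR) and Alas2 by 0.52 (SE 0.125, adjusted p 0.0383 by edgeR). Hbb-bh1 had an estimate of 0.91 and an edgeR adjusted p of 0.0620, and Hbb-bt and Hbb-bs had 0.08 and -0.01. Leaving out gtf2i replicate 2 or gtf2i replicate 3 left 1 of 8 called, and the count was 2 without gtf2i/gtf2i replicate 2, 3 without gtf2i replicate 1 and 3 in a fit of all 18 libraries. Over all genes those fits called 67, 70, 83, 343 and 474.

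The balance of embryonic to adult-type globin was described from counts per kilobase within each library, which needs no scaling between libraries. Globin counts here are those of the 3 embryonic and 3 adult-type genes, without Hba-a2, so the shares hold for these genes only. The embryonic genes made up 83.8%, 85.9% and 76.3% of globin counts in wt of the gtf2i cross, 82.3%, 77.6% and 78.9% in gtf2i, and 88.9%, 87.9% and 83.0% in gtf2i/gtf2i. The 2 highest libraries of the cross were gtf2i/gtf2i, and the third gtf2i/gtf2i library lay inside the wt range. Within title numbers the share was higher in gtf2i/gtf2i than in wt each time, at 87.9% against 83.8% under 11619, 88.9% against 85.9% under 12301 and 83.0% against 76.3% under 12419. In the ird1 cross the shares were 82.2%, 80.8% and 83.0% in wt, 82.6%, 81.9% and 83.9% in ird1, and 79.1%, 85.4% and 84.9% in ird1/ird1. As a log2 ratio of embryonic to adult-type counts, the mean was 2.22 ± 0.474 (SD, n = 3) in wt, 1.97 ± 0.224 in gtf2i and 2.72 ± 0.381 in gtf2i/gtf2i, and 2.19 ± 0.108, 2.27 ± 0.105 and 2.32 ± 0.351 in wt, ird1 and ird1/ird1 of the other cross.

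Ratios of 2 genes were tested one at a time, after their values had been seen. Hbb-y over Hbb-bs, per kilobase, was 8.78, 11.2 and 5.29 in wt, 8.08, 5.41 and 6.04 in gtf2i, and 16.9, 16.0 and 8.54 in gtf2i/gtf2i. The gtf2i/gtf2i libraries overlapped wt and not gtf2i. On the log2 scale gtf2i/gtf2i exceeded wt by 0.71 (exact two-sided permutation p 0.3) and gtf2i by 1.04 (exact permutation p 0.1), where 0.1 is the smallest p that 3 against 3 libraries allow. Hbb-y over Hbb-bt gave 0.71 and 0.97 with the same exact permutation p of 0.3 and 0.1. Paired by title number, an alternative chosen after seeing the data, Hbb-y over Hbb-bs was higher in gtf2i/gtf2i than in wt in 3 of 3 pairs, from 8.78 to 16.0 under 11619, 11.2 to 16.9 under 12301 and 5.29 to 8.54 under 12419. The exact permutation p over these 3 pairs was 0.25, two-sided and the smallest that 3 pairs allow, and Hbb-y over Hbb-bt and Hba-x over Hba-a1 were also higher in 3 of 3 pairs with the same exact p. For the alpha-like pair, Hba-x over Hba-a1, the differences were 0.17 (exact permutation p 0.6) and 0.39 (exact permutation p 0.2). In the ird1 cross these 3 ratios differed from wt by between -0.19 and 0.18 with exact permutation p from 0.3 to 0.9. No ratio in these 21 unpaired and 3 paired comparisons could pass 0.05, and adjustment over them can only raise the p-values.

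Hbb-bs, the major adult-type beta gene here, kept the same order of title numbers in each genotype of the gtf2i cross, though no gene of the 8 passed the adjusted test of the title number. Under 12301, Hbb-bs stood at 266.0, 354.3 and 247.1 CPM in wt, gtf2i and gtf2i/gtf2i, the lowest library of each genotype. Under 11619 it stood at 414.4, 413.2 and 417.6 CPM, and under 12419 at 493.0, 475.1 and 573.3 CPM, the highest of each genotype. An edgeR F test of the title number with genotype in the model gave an unadjusted p of 8.96e-06 and an adjusted p of 0.0524 for Hbb-bs. For Hbb-bt the unadjusted p was 0.000198 (edgeR adjusted p 0.118). Hbb-bt was lowest under 12301 in every genotype, at 54.2, 79.8 and 55.8 CPM, and highest under 12419 in wt and gtf2i/gtf2i, but in gtf2i its 12419 library, at 88.4 CPM, was under the 11619 library, at 97.4 CPM.

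The estimates for the embryonic globins had the opposite sign to those for the adult-type beta globins between 12419 and 11619, and none passed the adjusted test. Hbb-bh1 was 0.65 lower on the log2 scale under 12419 than under 11619 (p 0.000366, edgeR adjusted p 0.118), and Hba-x was 0.52 lower (p 0.00351, edgeR adjusted p 0.133). Hbb-y had an estimate of -0.30 there (edgeR adjusted p 0.292), and Hbb-bs and Hbb-bt had 0.32 and 0.36. Between 12301 and 11619 Hba-x and Hbb-y, at -0.22 and -0.26, had the same sign as Hbb-bs and Hbb-bt, at -0.53 and -0.54, and Hbb-bh1 had 0.02. By edgeR 0 of 8 genes were called over the title numbers, as were 0% of all genes, and 6 of 8 had an unadjusted p under 0.05, beside 18.9% of all genes. Hbb-bs was the 1 gene of the 8 called without TMM scaling and also with the robust fit. In the ird1 cross 0 of 8 passed an adjusted or an unadjusted threshold by edgeR, beside 0% and 6.01% of all genes.

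Within each title number the difference between gtf2i/gtf2i and wt rests on 1 library of each. For Hbb-y the log2 difference was 0.87 under 11619, 0.48 under 12301 and 0.91 under 12419, and for Slc4a1 it was 0.94, 0.80 and 0.71. Each was positive in all 3. For Hbb-bs the differences were 0.01, -0.11 and 0.22, and for Hbb-bt 0.04, 0.04 and 0.06. Hba-a1 differed by 0.77, 0.27 and 0.46 and Alas2 by 0.47, 0.41 and 0.38, all positive. Hba-x differed by 0.83, 0.50 and 0.69 and Hbb-bh1 by 0.23, 0.40 and 0.25, also all positive.

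**Figure D3:**
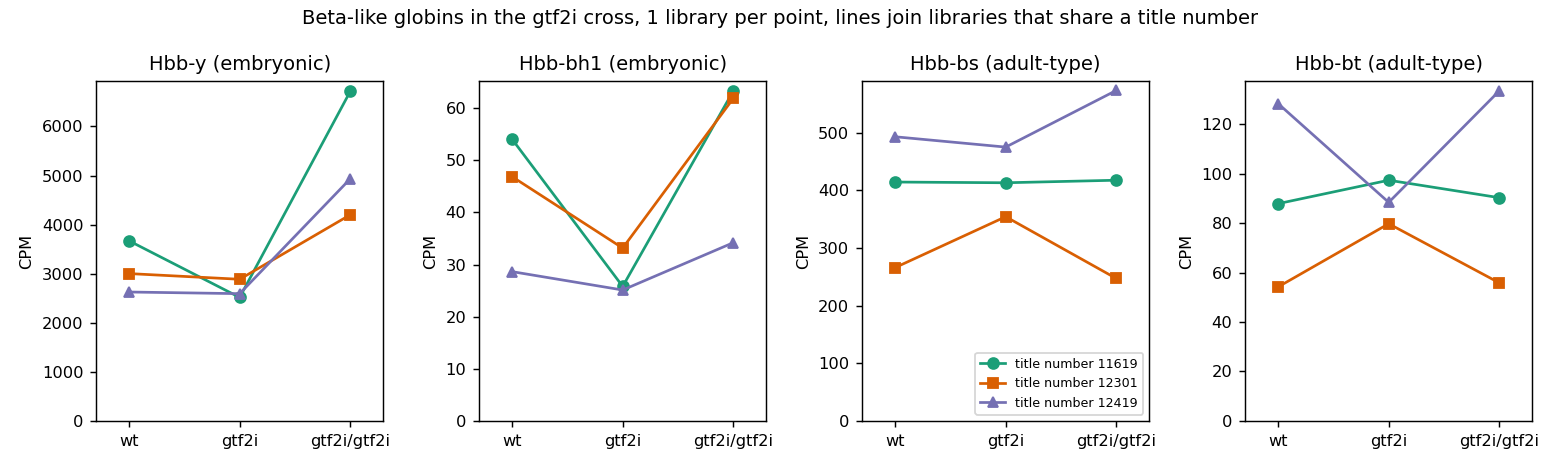
CPM (vertical axis, linear from 0) of the 4 beta-like globins in the 9 libraries of the gtf2i cross by genotype; each point is 1 library and lines join libraries that share a title number. Hbb-bs keeps the order 12301, 11619, 12419 in every genotype, while the Hbb-y lines all climb to gtf2i/gtf2i.

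In the ird1 cross no gene of the 8 differed between genotypes by the test. For ird1/ird1 against wt edgeR called 0 of 8, beside 0.00854% of all genes, with 0 of 8 at an unadjusted p under 0.05, beside 16.1% of all genes, and 0 by DESeq2. The 8 log2 fold changes lay between -0.07 and 0.24. Hbb-y stood at 2188, 3189 and 3476 CPM in wt, 2753, 4038 and 3667 in ird1, and 3674, 2381 and 3078 in ird1/ird1, with all groups overlapping and a log2 fold change of 0.03 (SE 0.189) in ird1/ird1.

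For ird1 against wt edgeR called 0 of 8, as it did of all genes (0%), and 1 of 8 had an unadjusted p under 0.05, beside 3.02% of all genes; DESeq2 called 0 of 8. The unadjusted count was 0 without wt replicate 1, ird1 replicate 2 or ird1 replicate 3, and 3 without wt replicate 3. In the full set that gene was Slc4a1, at 29.8, 44.4 and 53.7 CPM in wt and 45.2, 77.6 and 68.0 CPM in ird1, overlapping. Its log2 fold change was 0.60 (SE 0.222, p 0.0170 and edgeR adjusted p 0.997), and it ran from 0.37 without wt replicate 1 to 0.82 without wt replicate 3. For ird1/ird1 against ird1 edgeR and DESeq2 called 0 of 8 (edgeR 0% of all genes), with 0 of 8 at an unadjusted p under 0.05 beside 4.66% of all genes, and log2 fold changes between -0.36 and -0.07. The unadjusted count of 0 became 3 without ird1/ird1 replicate 1 and 1 without ird1 replicate 1, and in ird1/ird1 against wt it became 1 without ird1/ird1 replicate 1. Libraries of all 8 genes overlapped in each of these 3 comparisons, where 26.9%, 7.04% and 17% of all genes did not overlap.

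The difference between the gtf2i/gtf2i and the ird1/ird1 effects was itself tested over the 18 libraries, and 0 of 8 genes were called by edgeR or DESeq2, beside 0.171% of all genes by edgeR. Hbb-y had a difference of 0.72 (SE 0.272, p 0.0149 and edgeR adjusted p 0.288) and was the 1 gene of 8 at an unadjusted p under 0.05, beside 13% of all genes. That count rested on single libraries: it was 5 of 8 without ird1/ird1 replicate 1, 4 without wt replicate 1 of the ird1 cross, 3 without gtf2i/gtf2i replicate 1 or replicate 3, 2 without wt replicate 1 of the gtf2i cross, and 0 without gtf2i/gtf2i replicate 2 or wt replicate 3 of the ird1 cross, while 0 of 8 were called by edgeR each time. The rise of Hbb-y and Slc4a1 in gtf2i/gtf2i is thus not shown to differ from what happened in ird1/ird1. Between the wt groups of both crosses 0 of 8 were called by edgeR and DESeq2 (edgeR 0% of all genes, DESeq2 1354 genes), 0 of 8 had an unadjusted p under 0.05 beside 32.7% of all genes, and the log2 differences ran from 0.02 to 0.33. Cross and title number cannot be told apart in that comparison.

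Across the 18 libraries the embryonic globins varied together, and so did the adult-type beta globins. Points share a library, its depth and its genotype, and 8 pairs were computed. Hbb-y and Hba-x, the beta-like and alpha-like embryonic chains, had a Pearson r of 0.95 and a Spearman rho of 0.94 on log2 CPM (permutation p 1e-05, the smallest that the permutations can give, and 8e-05 after Benjamini-Hochberg adjustment for both). The r was 0.96 within the gtf2i cross, 0.95 within the ird1 cross and 0.94 without the 2 libraries farthest from the median. Hbb-bt and Hbb-bs had an r of 0.85 (rho 0.77, permutation p 3e-05 and 0.00022, adjusted 0.00012 and 0.00059), with 0.95 and 0.77 in each cross and 0.94 without the 2 farthest libraries.

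Between embryonic or membrane genes and Hbb-bt the pooled relation was weak, with different values in each cross, a difference that was not tested. Hbb-y and Hbb-bt had an r of 0.32 (rho 0.33, permutation p 0.19 for both, adjusted 0.22 and 0.21), with 0.03 within the gtf2i cross, 0.77 within the ird1 cross and 0.23 without the 2 farthest libraries. Slc4a1 and Hbb-bt had an r of 0.17 (rho 0.22, permutation p 0.49 and 0.38, adjusted 0.49 and 0.38), with -0.28 and 0.76 within crosses and 0.08 without the 2 farthest. Each pooled value lay between those of the 2 crosses and need not hold within either. Within title number 11610, with 6 libraries, r was 0.94 for Hbb-y with Hbb-bt and 0.83 for Slc4a1 with Hbb-bt.

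The other 4 pairs lay between. Hbb-y with Hbb-bh1 had an r of 0.78 (rho 0.86, permutation p 0.00013 and 2e-05, adjusted 0.00035 and 8e-05), with 0.73 and 0.89 within crosses and 0.87 without the 2 farthest. Hba-x with Hba-a1 had an r of 0.78 (rho 0.67, permutation p 0.00018 and 0.0029, adjusted 0.00036 and 0.0050), with 0.79 in both crosses and 0.71 without the 2 farthest. Slc4a1 with Alas2 had an r of 0.70 (rho 0.67, permutation p 0.0013 and 0.0031, adjusted 0.0021 and 0.0050), with 0.79 and 0.70 within crosses and 0.56 without the 2 farthest. Hbb-bt with Hba-a1 had an r of 0.49 (rho 0.50, permutation p 0.037 and 0.036, adjusted 0.049 for both), with 0.38 and 0.59 within crosses and 0.61 without the 2 farthest.

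**Figure D4:**
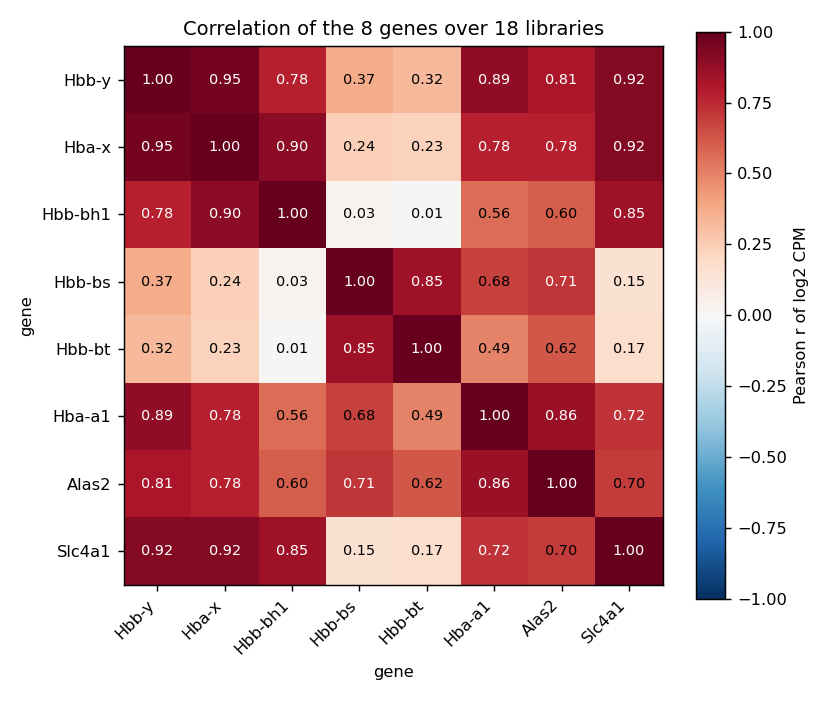
Pearson r of log2 CPM over the 18 libraries for every pair of the 8 genes, by colour and number. Hbb-y, Hba-x, Hbb-bh1 and Slc4a1 form a block of r from 0.78 to 0.95, Hbb-bs with Hbb-bt stands apart at 0.85, and Hba-a1 and Alas2 relate to both.

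Among the 10 genes outside the 8 whose log2 CPM tracked the mean of the 3 embryonic globins most closely over the 18 libraries were Hsd3b6 (r 0.89), Csf1 (0.84), Ctsl (0.81), Pgpep1 (0.80), Tent5c (0.79), Akirin1 (0.79), H2-K1 (0.78), Rab28 (0.78) and Cmtm7 (0.78). Hsd3b6, a steroid dehydrogenase gene, was itself called in gtf2i/gtf2i against wt, with a log2 fold change of 1.37 (edgeR adjusted p 1.00e-04). For the mean of the adult-type globins, Alas2 and Slc4a1 the 10 included Tent5c (r 0.93), a poly(A) polymerase gene active in late red cell precursors, and Fech (0.83), which encodes the enzyme that puts iron into haem, followed by Cap1 (0.73), Hmox1 (0.73), Pacsin1 (0.72), Fbxo16 (0.71), Creg1 (0.70), Pxdc1 (0.68) and Csf1 (0.67). Both rankings are over 18 libraries, 3 of which carry the genotype in which embryonic globins were highest.

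Other genes of the red cell programme were taken from lists and are counted without the 8. Each list count stands beside the same shares of all genes, 0.94% called and 14.4% at an unadjusted p under 0.05 against wt, and 3.12% and 16.5% against gtf2i. Of 16 haem synthesis and breakdown genes, 0 were called in gtf2i/gtf2i against wt by edgeR (3 at an unadjusted p under 0.05), and the median log2 fold change was 0.08, beside 0.00160 over all genes. Fech and Hmox1, which encodes a haem-degrading enzyme, had estimates of 0.38 and 0.64 there. Against gtf2i, 1 of the 16 was called, Hmox1, which rose by 0.75 (SE 0.157, adjusted p 0.0231 by edgeR) from 17.2 ± 3.13 to 29.1 ± 3.67 CPM (SD, n = 3). Of 14 iron uptake and storage genes 0 were called in either comparison by edgeR (0 and 1 at an unadjusted p under 0.05), with medians of -0.01 and 0.02. The iron exporter gene Slc40a1 and the ferritin light chain gene Ftl1 had the largest estimates against wt, -0.22 and -0.18. Cygb, the 1 other globin-fold gene in the table, had -0.64 (edgeR adjusted p 0.185).

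Of 14 red cell membrane and skeleton genes 0 were called against wt by edgeR (5 at an unadjusted p under 0.05, median -0.08). Their summed level was 1905 to 1947 CPM in wt and 1967 to 2020 CPM in gtf2i/gtf2i, without overlap. Against gtf2i 2 rose and 1 fell. Epb41, which encodes protein 4.1 of the membrane skeleton, rose by 0.40, the glucose transporter gene Slc2a1 rose by 0.49, and Dmtn, which encodes the actin-bundling protein dematin, fell by 0.60 (edgeR adjusted p from 0.0262 to 0.0316). Slc2a1 is also expressed by brain vessels. Of 20 red cell cytosol and maturation genes 0 were called against wt by edgeR (8 at an unadjusted p under 0.05, median -0.02), and 2 rose against gtf2i, Car2, a carbonic anhydrase gene, by 0.51 and Tent5c by 0.66 (edgeR adjusted p 0.0360 and 0.0237). The medians of these 4 lists lay between -0.08 and 0.08, beside 0.47 for the 8 genes. Rhag, which marks red cells more narrowly, was not analysed here.

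Of 11 erythroid transcription factor genes 1 was called against wt, Zfpm1, which encodes the GATA cofactor FOG-1. It rose by 0.54 (SE 0.110, adjusted p 0.0342 by edgeR), from 40.8 ± 4.80 to 59.7 ± 4.58 CPM (SD, n = 3). Against gtf2i 3 rose, Zfpm1 by 0.71, Gata2 by 0.76 and Tal1 by 0.48 (edgeR adjusted p 0.00470, 0.0231 and 0.0388). The medians of the list were 0.02 against wt and 0.03 against gtf2i, with 6 and 7 of 11 above 0 and 4 and 3 of 11 at an unadjusted p under 0.05. Cbfa2t3, which encodes a corepressor and is named after its values were seen, had the lowest estimates, -0.38 and -0.25 (edgeR adjusted p 0.143 and 0.339). Gata2 and Tal1 are expressed by midbrain and hindbrain neurons and by endothelium as well as by blood progenitors. Gata1 and Klf1 were not analysed here.

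Of 27 genes linked to globin switching 2 were called against wt, both lower. Nfix, a nuclear factor I gene, fell by 0.98 (SE 0.138, adjusted p 0.00377 by edgeR) from 329.5 ± 69.1 to 167.9 ± 15.6 CPM, and Nfia, of the same family, fell by 0.53 (SE 0.114, adjusted p 0.0455 by edgeR). Against gtf2i the same 2 genes fell by 1.14 and 0.65 (edgeR adjusted p 0.000644 and 0.00953). Both genes are also expressed by the developing brain itself. The median of the list was 0.05. Against wt 15 of the 27 had estimates above 0, and 7 had an unadjusted p under 0.05. Of 5 genes neighbouring the alpha-globin cluster, 0 were called in either comparison by edgeR (0 at an unadjusted p under 0.05). The largest estimates against wt were 0.27 for Mpg and 0.17 for Snrnp25.

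**Figure D5:**
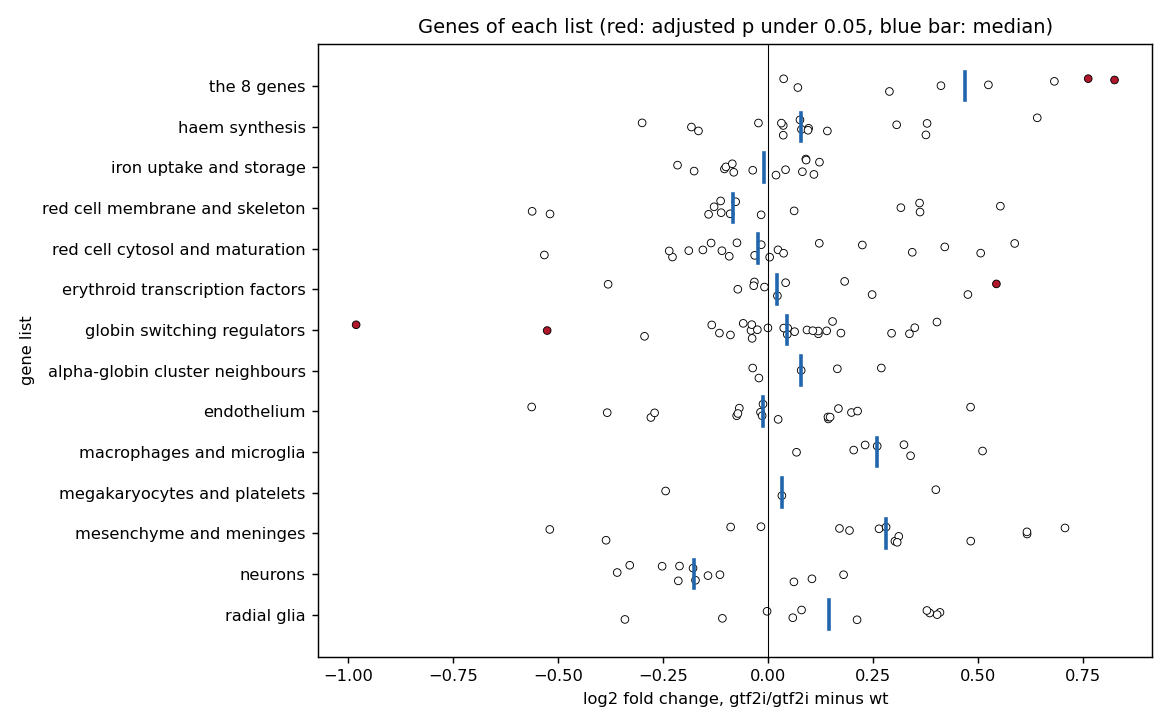
log2 fold change of each gene (horizontal axis) in gtf2i/gtf2i against wt, by gene list (vertical axis); circles are genes, filled red where the adjusted p is under 0.05, and the blue bar is the list's median. The 8 genes have a median of 0.47, while the haem, iron, membrane and cytosol lists have medians between -0.08 and 0.08.

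Markers of other cell types were read in the same comparison, where 14.4% of all genes had an unadjusted p under 0.05, and their part in the red cell result was not tested. Of 18 endothelial genes 0 were called by edgeR (2 at an unadjusted p under 0.05, median -0.01), with Sox17 at -0.56 and Plvap at 0.48, and their summed level was 538.0 to 649.4 CPM in wt and 574.7 to 679.0 CPM in gtf2i/gtf2i. Of 7 macrophage genes 0 were called by edgeR (1 at an unadjusted p under 0.05, median 0.26), with Cx3cr1 at 0.51 and C1qb at 0.34, and sums of 84.8 to 114.1 and 109.1 to 129.6 CPM. Of 3 megakaryocyte genes 0 were called by edgeR (0 at an unadjusted p under 0.05), with Itgb3 at 0.40 and Pf4 at -0.24. These 3 lists overlapped between groups.

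Of 10 radial glia genes 0 were called against wt by edgeR, beside 0.94% of all genes (6 at an unadjusted p under 0.05, beside 14.4% of all genes, median 0.15), and their sum moved without overlap, from 2178 to 2481 CPM in wt to between 2671 and 3057 CPM in gtf2i/gtf2i. Nes, Vim and Hes5 rose against gtf2i by 0.36, 0.40 and 0.57 (edgeR adjusted p from 0.0267 to 0.0421). The 10 estimates ran from -0.34 to 0.41 against wt and from -0.37 to 0.57 against gtf2i, and the lowest in both was that of the glutamate transporter gene Slc1a3, named after its values were seen (edgeR adjusted p 0.176 and 0.113). Of 15 mesenchyme genes 0 were called against wt by edgeR (6 at an unadjusted p under 0.05, median 0.28), with sums of 1698 to 1894 CPM in wt and 1841 to 2662 in gtf2i/gtf2i, and Lum rose against gtf2i by 0.53 (edgeR adjusted p 0.0368). The 15 estimates against wt ran from -0.52 for Dcn to 0.71 for Col1a1, both named after their values were seen (edgeR adjusted p 0.163 and 0.146). Of 12 neuron genes 0 were called in either comparison by edgeR (2 against wt at an unadjusted p under 0.05, median -0.18), with Gap43 at -0.36 and Snap25 at -0.33, and sums of 5756 to 6365 CPM in wt and 4970 to 6479 CPM in gtf2i/gtf2i. Ttr, the 1 gene of 9 listed for fetal liver and yolk sac plasma proteins that was in the table, fell by 1.63 (SE 0.184, adjusted p 0.000532 by edgeR) and is also made by the choroid plexus. In the remaining genotype comparisons no gene of these lists was called by edgeR.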

How the data were processed

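RNA was sequenced from whole E13.5 mouse brain in 18 libraries, depleted of ribosomal RNA per the labels' protocols. The authors deposited unnormalized read counts by gene. Per the submitters' processing notes Trimmomatic, STAR and HTSeq were used with mm10, and versions, strand and counting settings are not given in the sources used here. The deposited table held 11708 genes, and its smallest count per library was 2.90 to 3.09 CPM of the total, with 10 as the smallest count of any gene. A minimum in every library is therefore present, and genes under it were not analysed here. The 32 chromatin and input samples were not used.

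Counts were tested with edgeR 4.0.16 (TMM, filterByExpr, which removed 0 genes, and the quasi-likelihood test) in R 4.3.3 and adjusted by Benjamini-Hochberg over all 11708 genes, with 9 libraries per fit within a cross and 18 for comparisons across crosses. Called means an adjusted p under 0.05. The biological coefficient of variation was 10.4% and 10.0% in the 2 crosses. Alternatives were DESeq2 1.42.0, no TMM, the 8 genes left out of the scaling, other filters, the robust fit, other sets of libraries, the title number as a block, and leaving out each library. Pairing of 2-gene ratios by title number was added after seeing the data. Levels per kilobase used the transcript length in the table. The method was also run on simulated counts, and the outcome is not reported here. Promoters came from RefSeq (GRCm38.p6).

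Title numbers were taken as pairing where deviations from group means correlated above 0.1 in every pair. For gtf2i/gtf2i and wt the values were 0.377, 0.103 and 0.520, so by this rule the numbers were taken to pair those groups. For gtf2i and wt the values were 0.280, 0.354 and 0.0485. For gtf2i/gtf2i and gtf2i they were 0.114, 0.0576 and 0.0614, so neither was taken as paired. Between gtf2i/gtf2i and wt, libraries with different numbers gave -0.437 to 0.203, the highest of them above the same-number value of 0.103. The rule thus does not cleanly separate pairs, and the block fit also held the gtf2i libraries.

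The 8 genes and all gene lists were chosen with earlier results of these data known. Named genes were the 8, Gtf2i and Gtf2ird1, list genes called in a genotype comparison or otherwise the 2 with the largest change, and the 10 most correlated with each set. Some genes that this rule names are not reported here.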

Additional observations from a re-analysis of the deposited data

How the results depend on the processing

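Against wt, gtf2i/gtf2i gave 2 called genes of 8, 5 with the title number as a replicate block, 0 with only the 6 libraries compared, and 0 to 4 when 1 library was left out. Against gtf2i it gave 5, 3 with all 18 libraries, 6 with the block and 1 to 6 with 1 library left out. Counted by gene over every alternative to that fit except leaving out 1 library, 4 calls were lost and 2 were gained. Every other genotype comparison stayed at 0 with 1 library left out. The title number test gave 1 of 8 without TMM and 1 with the robust fit. The cause of these shifts was not tested, and the reduced fits also had fewer libraries. With the block Hbb-bt changed sign to 0.0484 in gtf2i against wt and to -0.0092 in gtf2i/gtf2i against gtf2i. The block changed no call in the gtf2i or ird1 cross other than those named in the report and Hbb-bh1 against gtf2i (adjusted p 0.00152). With 1 library left out the log2 fold change of Hbb-bt ran from -0.33 to 0.39 in gtf2i/gtf2i against wt, from -0.29 to 0.31 in gtf2i against wt and from -0.29 to 0.35 in gtf2i/gtf2i against gtf2i. For Hbb-bs the ranges were -0.24 to 0.34, -0.14 to 0.28 and -0.32 to 0.26. In gtf2i/gtf2i against wt Hbb-bh1 ran from 0.06 (without wt replicate 3) to 0.55, Hba-a1 from 0.30 (without gtf2i/gtf2i replicate 2) to 0.72, Hba-x from 0.41 (without gtf2i/gtf2i replicate 2) to 0.86, Alas2 from 0.33 to 0.50, Hbb-y from 0.56 to 0.90 and Slc4a1 from 0.66 to 1.02. The difference in the log2 ratio of embryonic to adult-type globin ran from 0.23 (without wt replicate 3) to 0.72, beside 0.50 with all libraries. In gtf2i against wt the ranges were -0.32 to -0.08 for Hbb-y, -0.50 to -0.16 for Hba-x, -0.85 to -0.41 for Hbb-bh1, -0.20 to -0.04 for Hba-a1, -0.20 to -0.02 for Alas2 and -0.49 to -0.25 for Slc4a1, and -0.52 to -0.06 for the log2 ratio of embryonic to adult-type globin. In gtf2i/gtf2i against gtf2i Hba-a1 ran from 0.41 to 0.82, Hba-x from 0.75 to 1.19 and Hbb-bh1 from 0.77 to 1.16. There Hbb-y ran from 0.78 to 1.12, Alas2 from 0.44 to 0.61 and Slc4a1 from 1.01 to 1.36. In ird1/ird1 against wt Hbb-y ran from -0.12 to 0.20 and Slc4a1 from 0.03 to 0.47. Over all genes, gtf2i/gtf2i against wt called 110 genes, 310 by DESeq2, 624 with the block, 31 with 6 libraries, 262 with 18 and 28 to 1159 with 1 library left out. Against gtf2i the count was 365, 892 with the block and 67 to 1376 with 1 library left out. In gtf2i against wt it was 1, 6 by DESeq2, 5 with 6 libraries, 3 with 18 and 2 with the block. The difference between effects gave 20, 84 by DESeq2, 83 with the block and 12 to 723 with 1 library left out. The highest of these 3 ranges each came without gtf2i/gtf2i replicate 3. The wt groups gave 0, 1354 by DESeq2 and 0 to 2076 with 1 library left out, the highest without wt replicate 1 of the gtf2i cross. Over all genes the title number test in the gtf2i cross gave 0, 10 without TMM and 6 with the robust fit. The wt groups with the block could not be fitted, since title numbers lie within crosses. The smallest count of the 8 genes, 103, sets a counting error of 9.85%.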
